A study of Bos taurus with 56 samples.

Results

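The peak lists of day 14 elongating cattle embryos and of blastocysts were compared, covering every peak of both lists. They hold 372509 day 14 peaks and 3397 blastocyst peaks, 375906 (55.9%) of the 673059 peaks in the 11 lists of the series. The assay was ATAC-seq: a transposase cuts and tags DNA where chromatin is open, and stretches with many tagged fragments are called as peaks. Both groups are Bos taurus embryos with no treatment or genotype in the labels: 6 libraries of day 14 elongating embryos and 3 libraries of blastocysts, these without the in vivo label that another blastocyst group of 4 libraries carries. Embryos were pooled for each library, and the peaks of all libraries of a stage were merged by the authors into 1 list. How the embryos were produced is not given in the sources used here.

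The blastocyst is the stage at which the embryo has formed a fluid-filled cavity, an outer trophectoderm that gives rise to placental tissue, and an inner cell mass. In cattle the hatched blastocyst does not implant at once: its trophoblast elongates in the uterus into a filament and secretes interferon tau, the signal by which pregnancy is recognised, while the embryonic disc begins to form the germ layers. The comparison asks which stretches of open chromatin are found at both stages. With 1 merged list per stage there is no spread between replicates, so values are given with no test. Intervals are exact 95% Clopper-Pearson intervals, which cover counting error only and treat neighbouring peaks as independent. The lists carry no read counts or peak heights, and sequencing depth is unknown. A longer list cannot be told apart from deeper sequencing or from more cells in a pool.

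The day 14 list was 110 times as long as the blastocyst list and covered 98.6 times as many bases, with 124 Mb at day 14 and 1.26 Mb in the blastocyst. These are 4.66% and 0.0473% of the 2661 Mb spanned by the lists. A peak was taken as shared when at least 1 base lay in a peak of the other list. By this rule 1964 of the day 14 peaks (0.527%) met a blastocyst peak and 370545 did not. In the other direction, 2009 of the blastocyst peaks (59.1%, interval 57.5% to 60.8%) met a day 14 peak and 1388 did not. Both shares have to be read beside the lengths of the lists, since the short one can meet only a small part of the long one. Counted in bases, 0.806 Mb lay in both lists, which is 0.649% of the day 14 bases and 64.0% of the blastocyst bases. Few peaks sat near the limit of the rule: 14 shared blastocyst peaks met a day 14 peak by less than 50 bp (median width 217.5 bp), and 15 blastocyst-only peaks (median width 190 bp) ended less than 50 bp from one. When at least 50% of both peaks had to overlap, the share of blastocyst peaks was 39.4%. With the day 14 list kept to its 3397 widest peaks, as many as the blastocyst list holds, 2.44% of those day 14 peaks and 4.47% of the blastocyst peaks were shared.

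Shared peaks had a larger median width than unshared ones in both lists. Among day 14 peaks the median width was 378 bp for shared peaks (quartiles 234 and 667 bp) and 215 bp for peaks of day 14 only (160 and 362 bp). Among blastocyst peaks it was 306 bp for shared peaks (202 and 541 bp) and 186 bp for peaks of the blastocyst only (159 and 234 bp). Peaks of 1000 bp or more made up 13.1% of the shared day 14 peaks (257) against 4.28% of the day 14-only ones (15873). Most wide day 14 peaks were therefore unshared. In the blastocyst list, peaks of this width numbered 183 among the shared and 3 among the blastocyst-only ones. Both lists had a similar lower bound, the narrowest peak having 125 bp at day 14 and 137 bp in the blastocyst.

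**Figure D1:**
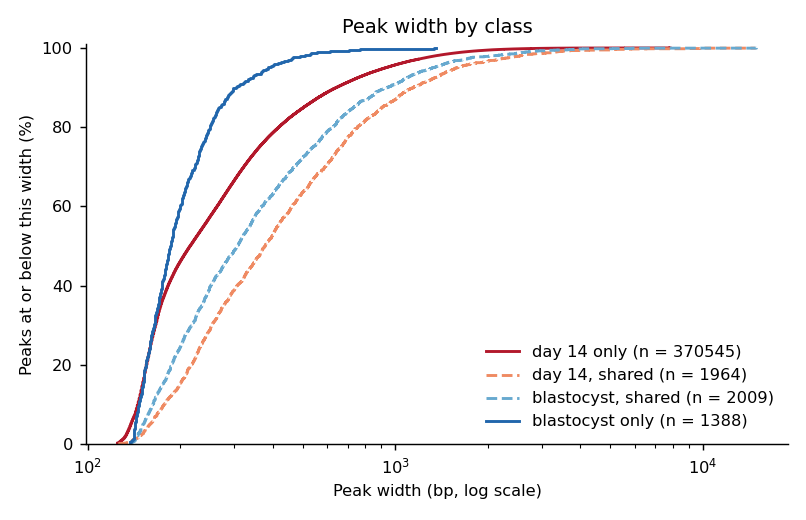
Cumulative share of peaks (vertical axis, %) at or below each width (horizontal axis, bp, log scale) for the 4 classes. Blastocyst-only peaks reach 1361 bp at most and lie left of the other classes above about 200 bp, whereas shared peaks of both lists reach 14806 bp at day 14 and 14956 bp in the blastocyst.

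The share of peaks found in the other list rose with width, a rise that the rule of 1 shared base builds in to an unknown degree. In 5 groups of equal size from narrow to wide, the share of day 14 peaks found in the blastocyst list was 0.103%, 0.197%, 0.554%, 0.608% and 1.17%. The intervals at 0.554% (0.502% to 0.610%) and 0.608% (0.553% to 0.666%) overlapped. The 5 groups of the blastocyst list were found in the day 14 list at 34.1%, 40.5%, 52.3%, 75.1% and 93.7%. Of the 680 widest blastocyst peaks, those of 449 bp or more, only 43 therefore lacked a day 14 peak.

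**Figure D2:**
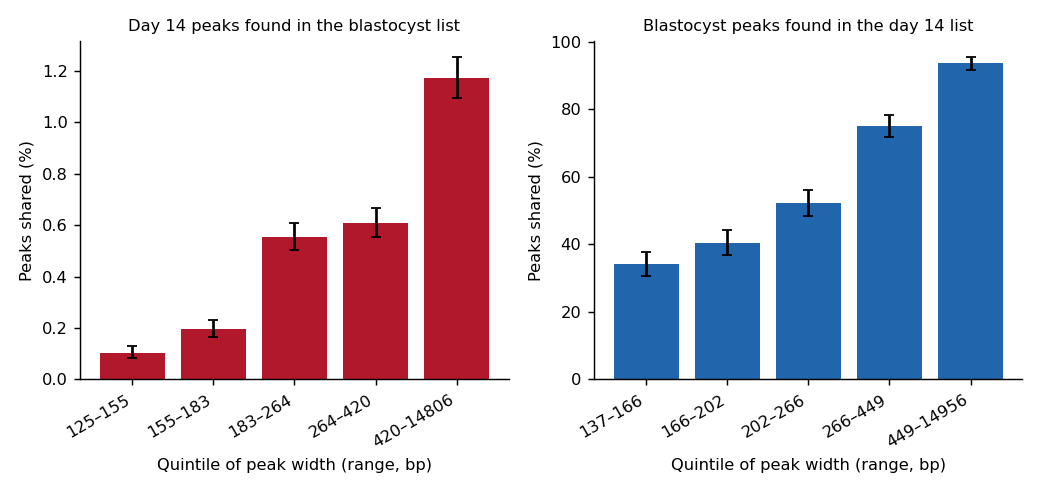
Share of peaks found in the other list (vertical axes, %, on different scales) in 5 equal groups of peak width (horizontal axis, range in bp), day 14 peaks on the left and blastocyst peaks on the right, with exact 95% intervals as error bars. The share is highest in the widest group of both lists, at 1.17% of day 14 peaks and 93.7% of blastocyst peaks.

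Where both stages had a peak, the peaks were compared in place and size. Because these peaks were chosen for their overlap, their centres could not lie far apart. Joining the shared peaks gave 1856 regions, of which 1669 held 1 peak of each stage, 104 held 1 day 14 peak over several blastocyst peaks, 73 held 1 blastocyst peak over several day 14 peaks and 10 held several of both. In the 1669 simple regions the centres lay a median of 33.5 bp apart (upper quartile 86.5 bp). The median overlap took in 84.9% of the day 14 peak and 98.9% of the blastocyst peak. The blastocyst peak lay wholly inside the day 14 peak in 785 regions (47.0%), and the day 14 peak inside the blastocyst peak in 339 (20.3%).

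Across the 1856 regions the summed peak width had a median of 399 bp at day 14 and 320.5 bp in the blastocyst, and the median of the day 14 over blastocyst ratio was 1.11 (quartiles 0.892 and 1.49). The day 14 side was wider in 1183 regions (63.7%). It was at least 2 times as wide in 269 regions (14.5%) and at most 0.5 times as wide in 104 (5.6%). The ratio differed with blastocyst width: with the regions in 4 equal groups by blastocyst width, in the narrowest group the medians were 242 bp at day 14 and 170 bp in the blastocyst with a ratio of 1.40, and in the widest group they were 880.5 bp at day 14 and 878 bp in the blastocyst with a ratio of 0.990. The width that forms the groups is also the divisor of the ratio, and its part in this pattern was not tested. On the X chromosome the median ratio was 1.24 over 246 regions, against 1.09 over 1610 autosomal regions.

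The widest shared region is an open domain on chromosome 17 (chr17:25029576-25044564, build UMD3.1). There the day 14 peak spanned 14806 bp and the blastocyst peak 14956 bp, a ratio of 0.990. All embryo lists had a peak there, and the GV (immature) and MII (mature) oocyte lists had none. On the same chromosome, chr17:25112953-25122770 and chr17:25051874-25060934 were each 1 day 14 peak, of 9818 and 9061 bp, over 8 and 5 separate blastocyst peaks that summed to 2724 and 1854 bp. Both also had peaks in the in vivo morula and in vivo blastocyst lists, and the second in the 16-cell list as well. At chr3:8102237-8112144 a single day 14 peak of 9908 bp covered 7 blastocyst peaks summing to 7127 bp, and this region had a peak in every list of the series. The last of the 5 widest, chr18:57709432-57715997, had the largest day 14 over blastocyst width ratio of all shared regions, 34.7, with 6566 bp at day 14 and 189 bp in the blastocyst. Both morula lists and the GV oocyte, 4-cell, 8-cell and 16-cell lists had a peak there.

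The next largest ratios lay at chr13:63048738-63053757, with 5020 bp at day 14 and 225 bp in the blastocyst, and at chr22:53642077-53644854, with 2778 bp at day 14 and 151 bp in the blastocyst. The opposite extreme was chr17:292465-294183, where the day 14 peak had 183 bp and the blastocyst peak 1719 bp. It was followed by chr7:56599272-56600898 with 224 bp at day 14 and 1627 bp in the blastocyst, and by chr1:145296900-145299060 with 347 bp at day 14 and 2161 bp in the blastocyst. All 3 of these regions had a peak in the in vivo blastocyst list as well. None of the 3 regions with the largest ratio had one. Blastocyst width is the divisor of the ratio, so the choice of extremes also sorts regions by that width. The in vivo list met 6.91% of the narrowest and 78.2% of the widest of the 5 blastocyst width groups. The part of width in this contrast was not tested. The lists name no gene, and the gene table at hand is of another genome assembly, so no region is assigned to a gene.

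Peaks of day 14 only reached 7828 bp at chr22:60020261-60028088, which also had peaks in both morula lists. The region at chr7:2890649-2897841 was found in both morula lists, at the 8-cell and at the 16-cell stage. The other 3 of the 5 widest, chr26:51474440-51481927, chr18:49156387-49163449 and chr15:42767077-42773976, were 6900 to 7488 bp wide and had a peak in no other list. Peaks of the blastocyst only were far narrower, the widest having 1361 bp at chr15:3637-4997, close to the chromosome start, with peaks in the 2-cell, 4-cell, 8-cell and morula lists. Next came chr2:36-1375, of 1340 bp, found in the 4-cell list too. The region at chr8:45470680-45471831, of 1152 bp, had a peak in every embryo list except day 14. Both remaining ones, chr1:145352029-145352934 and chr1:145421359-145422238, had 906 and 880 bp. Each was also present in the in vivo blastocysts, and the second had a peak in all lists from the 2-cell to the 16-cell stage too.

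Density along the genome differed between the lists on the gene-dense chromosomes and on X. On chromosomes 18, 19 and 25 together, peak density over that of the other chromosomes was 0.942 in the morula list, 0.365 in the blastocyst list (interval 0.290 to 0.453) and 2.21 in the day 14 list (2.19 to 2.23). The X chromosome, 148.8 of the 2661 Mb spanned, held 4.26% of the morula peaks and 10.7% of the blastocyst peaks (9.69% to 11.8%). It held 9.43% of the in vivo blastocyst peaks and 1.02% of the day 14 peaks (0.992% to 1.06%). By class, X held 0.960% of the day 14-only peaks, 14.0% of the shared blastocyst peaks and 5.91% of the blastocyst-only peaks. Over the mean of each class, peak density on X was 2.51 for shared blastocyst and 1.06 for blastocyst-only peaks. The difference between the blastocyst classes depended on the rule: with at least 50% of both peaks overlapping, X held 11.6% of the shared and 10.1% of the blastocyst-only peaks. The blastocyst-only share was 3.25% with peaks widened by 250 bp, 9.89% with peaks of at least 329 bp and 10.5% against the 3397 widest day 14 peaks, where 14.6%, 14.9% and 15.8% of the shared blastocyst peaks lay on X. Single chromosomes ranged from 318 day 14 peaks per Mb on chromosome 19 to 25.6 on X, and from 4.34 blastocyst peaks per Mb on chromosome 27 to 0.348 on chromosome 18. On chromosome 27, 145 of the 197 blastocyst peaks lay in 1 window of 1 Mb. Without the 10 densest blastocyst windows described below, its density over the list mean was 1.22 in place of 3.40, and X was the densest at 2.25 in place of 1.92. Blastocyst peaks on X numbered 2.45 per Mb. Over the 30 chromosomes the rank correlation of both densities was -0.41 (Spearman), and -0.47 without those windows. It describes 2 lists on the same chromosomes, which differ in gene content and base composition.

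The share of blastocyst peaks that met a day 14 peak also varied between chromosomes. It was highest on chromosomes 17 (174 of 193, 90.2%), 25 (25 of 29, 86.2%) and 19 (26 of 32, 81.3%), and lowest on chromosomes 12 (12 of 55, 21.8%), 20 (9 of 35, 25.7%) and 2 (31 of 115, 27.0%). Without the 10 densest windows chromosome 17 stood at 63 of 80 (78.75%), below chromosomes 25 and 19, and chromosome 1 at 34 of 116 (29.3%) in place of 52.5%. The interval was 85.1% to 94.0% for chromosome 17 and 11.8% to 35.0% for chromosome 12. Both were picked as the extremes of 30 chromosomes, so the distance between their intervals is no test. On X, where day 14 peaks were sparsest, 282 of 364 blastocyst peaks (77.5%, interval 72.8% to 81.7%) met one, against 56.9% on the autosomes. Those 282 peaks met 259 day 14 peaks, so that 6.79% of the day 14 peaks on X were shared, against 0.527% of the whole list.

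**Figure D3:**
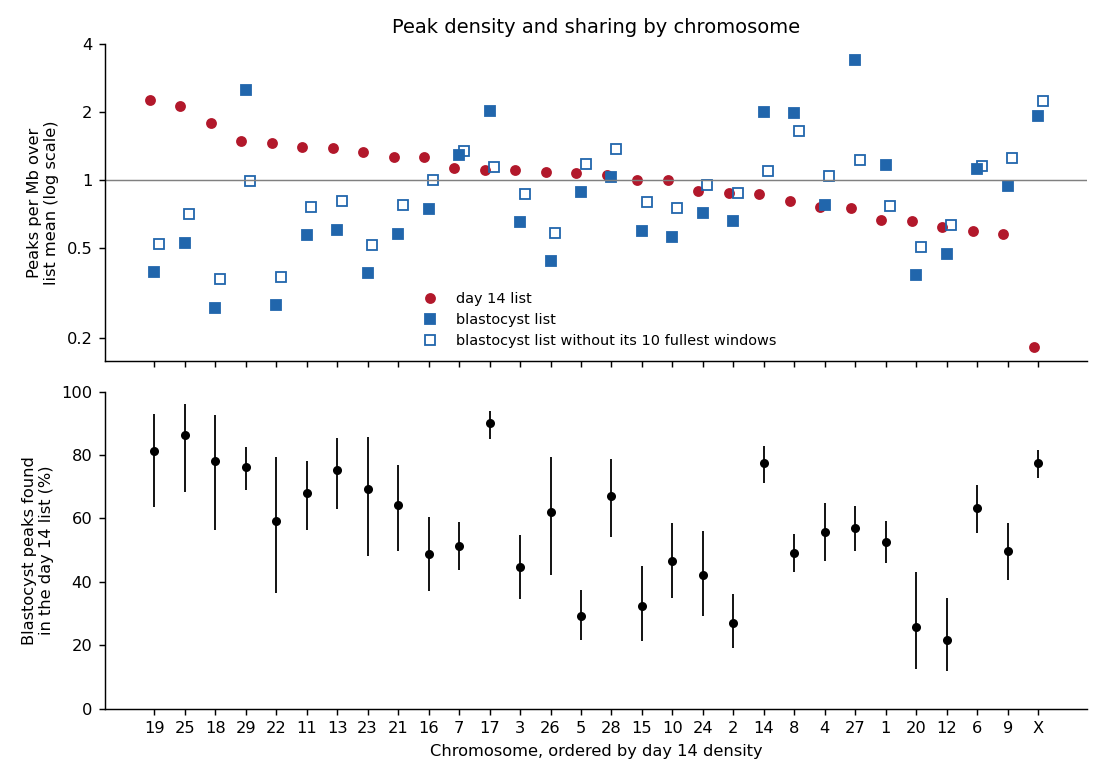
Upper panel, peaks per Mb on each chromosome over the mean of the list (log scale) for the day 14 list, the blastocyst list and the blastocyst list without its 10 fullest windows; lower panel, share of blastocyst peaks found in the day 14 list (%) with exact 95% intervals. Chromosomes run from the highest to the lowest day 14 density, and X stands at 0.183 times the mean at day 14 and 1.92 times in the blastocyst.

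Both lists were uneven along the genome. In windows of 1 Mb, a day 14 peak was present in 2677 of 2678 windows and a blastocyst peak in 1026, numbers that depend on the length of each list. A peak of the same list lay within 1 kb for 55.1% of the day 14 peaks and 34.6% of the blastocyst peaks. The 10 fullest windows of each class held 2.07% of the day 14-only peaks, 33.2% of the shared blastocyst peaks and 17.7% of the blastocyst-only peaks. The median distance from a peak to the nearest of its class was 808 bp for day 14-only peaks, 1385 bp for shared blastocyst peaks and 230895 bp for blastocyst-only peaks. The window shares, these distances and the shares within 1 kb all depend on the number of peaks. The classes hold 370545, 2009 and 1388 peaks in the same order. The values therefore do not compare the clustering of day 14-only peaks with that of the blastocyst classes. Of the 755 windows with a blastocyst-only peak, 486 held a single one. Blastocyst-only peaks lay a median of 5898.5 bp from the nearest day 14 peak (quartiles 1241 and 20114.5 bp). The median gap between neighbouring day 14 peaks was 1731 bp. These are unlike measures, since a position outside day 14 peaks falls more often in a long gap than in a short one. Of the blastocyst-only peaks, 94 (6.77%) came within 250 bp of a day 14 peak.

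The 10 windows with the most blastocyst peaks held 861 of them (25.3%), of which 664 (77.1%, interval 74.2% to 79.9%) met a day 14 peak. Outside these windows 1345 of 2536 did (53.0%, interval 51.1% to 55.0%). Day 14 peaks in the same windows were 1.48 times as dense as in the whole list. Of these 2077 day 14 peaks 681 (32.8%) met a blastocyst peak, against 0.346% of the day 14 peaks elsewhere, a contrast that follows from choosing windows by their number of blastocyst peaks. The windows differed in how far the blastocyst peaks were met at day 14. On chromosome 27, between 28 and 29 Mb, there were 151 day 14 peaks and 145 blastocyst peaks, of which 76 were shared. On chromosome 8, between 74 and 75 Mb, there were 177 day 14 and 110 blastocyst peaks, 54 of the blastocyst peaks being shared. These 2 windows together hold 125 of the 197 blastocyst-only peaks of the 10 windows. Almost all blastocyst peaks were shared on chromosome 14 between 0 and 1 Mb (124 of 129), on chromosome 17 between 51 and 52 Mb (68 of 70) and between 50 and 51 Mb (43 of 43), and on chromosome 6 between 6 and 7 Mb (40 of 40).

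The window on chromosome 1 between 145 and 146 Mb was also rich at day 14, with 648 day 14 peaks, 4.63 times the list mean, and 120 blastocyst peaks, of which 90 were shared. The window on chromosome 29 between 30 and 31 Mb held 341 day 14 and 116 blastocyst peaks, 94 of them shared. On X between 37 and 38 Mb, 42 of 46 blastocyst peaks were shared beside 88 day 14 peaks, and on chromosome 7 between 56 and 57 Mb, 33 of 42 beside 95. All 10 windows held peaks of the 2-cell and 4-cell lists too, from 5 to 83 peaks at the 2-cell stage, and the window on chromosome 14 held 70 GV oocyte peaks. The 5 windows with the most day 14 peaks were others, on chromosomes 25 (0 to 1 Mb), 17 (74 to 75 Mb), 13 (54 to 55 Mb), 11 (104 to 105 Mb) and 7 (45 to 46 Mb). They held 760 to 832 day 14 peaks each, 5.43 to 5.94 times the list mean, and 2, 0, 0, 0 and 0 blastocyst peaks, none of them shared.

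**Figure D4:**
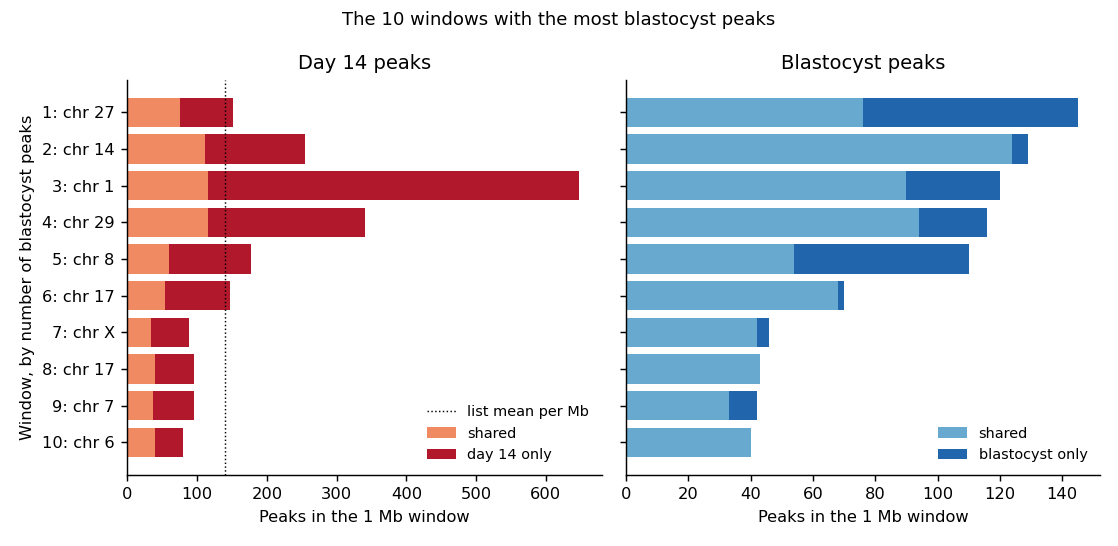
Number of day 14 peaks (left) and blastocyst peaks (right, on another scale) in the 10 windows of 1 Mb that hold the most blastocyst peaks, each bar split into shared and unshared peaks; the dotted line is the day 14 mean of 140 peaks per Mb. Day 14 peaks exceed that mean in the first 6 windows, by most on chromosome 1 with 648, and nearly all blastocyst peaks are shared in the windows on chromosomes 14, 17 and 6.

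Along the autosomes, which in cattle have their centromere at one end, at the start of the numbering, the classes were placed differently. The last 10% of the length of the autosomes held 18.03% of the day 14-only peaks, 14.6% of the shared blastocyst peaks and 9.65% of the blastocyst-only peaks. The first 10% held 8.399% of the day 14-only peaks, 21.0% of the shared blastocyst peaks (interval 19.1% to 23.0%) and 8.19% of the blastocyst-only peaks (6.76% to 9.81%). Without the 10 windows the first 10% still held 18.01% of the shared blastocyst peaks and 9.16% of the blastocyst-only ones.

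Shared peaks were mostly found in earlier lists, and blastocyst-only peaks mostly were not. Of the shared blastocyst peaks, 1490 (74.2%, interval 72.2% to 76.1%) met a peak in at least 1 of the 8 lists from the GV oocyte to the morula, against 198 of the blastocyst-only peaks (14.3%, 12.5% to 16.2%). Over the whole blastocyst list it was 49.7%, and 32.8% met the morula list. The GV oocyte list met 23.0% of the shared and 0.865% of the blastocyst-only peaks, and the MII oocyte list, with 730 peaks, met 9.06% of the shared and 0.144% of the blastocyst-only ones. In the 2-cell list, with 2636 peaks and 1.15 Mb, the share was 34.5% of the shared and 2.52% of the blastocyst-only peaks, and in the 4-cell list 40.9% of the shared and 3.89% of the blastocyst-only ones. The 8-cell list met 47.5% of the shared and 7.49% of the blastocyst-only peaks, and the morula list 52.0% of the shared and 5.04% of the blastocyst-only ones. Of the shared blastocyst peaks, 113 met a peak in all 8 earlier lists, against 0 of the 1388 blastocyst-only peaks. With 3 counts taken as the limit that a count of 0 allows, in place of the exact interval, this is a share of up to 0.216%.

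The gap was also present among peaks of similar width. Among widths from 137 to 202 bp, 27.5% of 510 shared and 3.74% of 855 blastocyst-only peaks met a morula peak. From 203 to 306 bp the share was 40.2% of the shared and 5.29% of the blastocyst-only peaks, and from 307 to 541 bp it was 57.5% of the shared and 11.8% of the 119 blastocyst-only peaks (interval 6.58% to 18.95%). Weighted to the widths of the shared peaks, the blastocyst-only share was 11.02% in place of 5.04%. With peaks of at least 329 bp in both lists it was 29.7%, against 77.8% of the shared peaks.

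Day 14-only peaks were found in each earlier list less often than shared day 14 peaks. The GV oocyte list met 22.5% of the shared and 0.545% of the day 14-only peaks, and the 4-cell list 41.3% of the shared and 0.632% of the day 14-only ones. At the 8-cell stage it was 48.3% of the shared and 6.03% of the day 14-only peaks, at the 16-cell stage 44.9% of the shared and 8.38% of the day 14-only ones. The morula list met 52.0% of the shared peaks and 44639 (12.0%) of the day 14-only peaks. The 8-cell share over the 4-cell share was thus 1.17 for shared and 9.55 for day 14-only peaks, where the 8-cell list is 10.2 times as long as the 4-cell list. Among peaks of 668 bp or more, 82.2% of the shared and 48.0% of the day 14-only peaks met a morula peak, and of those from 125 to 234 bp, 21.9% of the shared and 5.19% of the day 14-only peaks did. Among the 3397 widest day 14 peaks, 67.3% of those not shared met a morula peak. In all, 303906 day 14-only peaks (82.0%) were in none of the 8 earlier lists. For the whole day 14 list it was 304409 peaks (81.7%), so the value describes the list and not this class alone. The same holds for the day 14-only shares in the later lists. Of the whole day 14 list, 6.25% met the 8-cell, 8.57% the 16-cell and 12.3% the morula list.

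**Figure D5:**
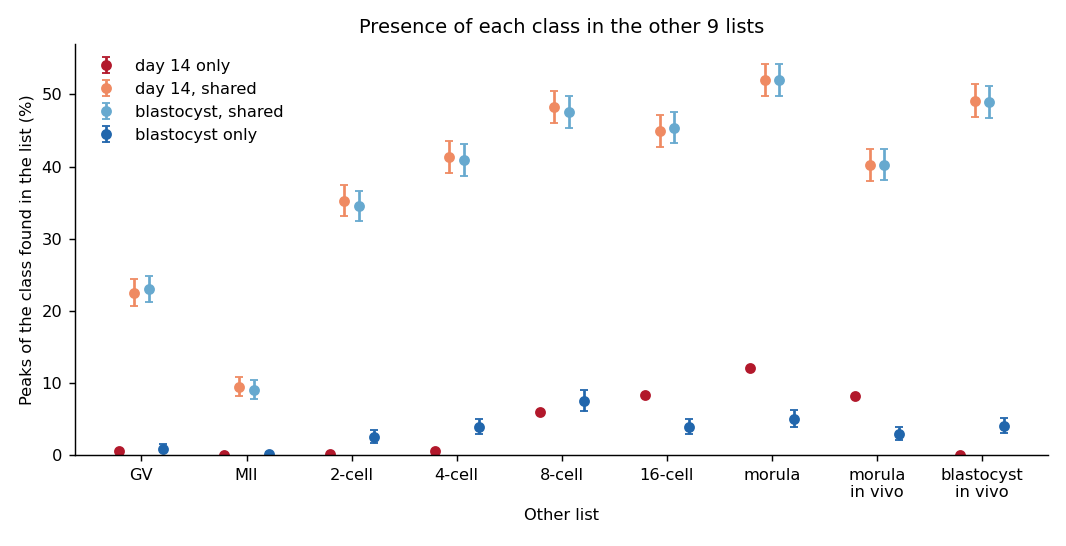
Share of the peaks of each class (vertical axis, %) that met a peak of each of the other 9 lists (horizontal axis, by stage), with exact 95% intervals. Shared peaks lie at 22.5% or more in every list except the MII oocyte list, day 14-only peaks stay at 12.0% or less and blastocyst-only peaks at 7.49% or less.

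By the earliest list in which they were found, 512 of the shared blastocyst peaks (25.5%) had a peak in an oocyte list, 493 (24.5%) were first seen in the 2-cell or 4-cell list, 292 (14.5%) in the 8-cell or 16-cell list, 193 (9.61%) in a morula list and 519 (25.8%) in none of them. Of the blastocyst-only peaks, 14 had a peak in an oocyte list, 58 were first seen in the 2-cell or 4-cell list, 78 in the 8-cell or 16-cell list, 48 in a morula list and 1190 in none. Of the shared peaks, 333 (16.6%) had been seen before the morula and were in neither morula list. A set of 455 shared blastocyst peaks (22.6%) was found in the day 14 and blastocyst lists and in no other list. They were narrow, with a median width of 199 bp in the blastocyst and 230 bp in the 445 day 14 peaks that met no other list. Of these 455, 132 (29.0%) lay in the 10 windows and 7.91% on X. Of the blastocyst-only peaks, 1178 (84.9%) were in none of the other 9 lists, against 48.1% of the whole blastocyst list.

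Most morula peaks found again at day 14 had no peak in the blastocyst list. With 3397 peaks, the blastocyst list could meet only a small part of them. Of 88858 morula peaks, 948 (1.07%) met both a day 14 and a blastocyst peak, 39740 (44.7%) a day 14 peak and no blastocyst peak, and 52 (0.0585%) a blastocyst peak and no day 14 peak. The other 48118 (54.2%) met neither. Median widths in the morula were 610 bp for peaks met by both later lists, 723 bp for those met at day 14 alone, 403.5 bp for those met in the blastocyst alone and 429 bp for those met by neither. Thus 948 of the 1000 morula peaks that met a blastocyst peak (94.8%) met a day 14 peak too, against 45.2% of those that met none.

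Blastocyst peaks that were also in the list labelled in vivo met a day 14 peak more often than the others. Of the 1039 blastocyst peaks found in both blastocyst lists, 983 (94.6%, interval 93.1% to 95.9%) met a day 14 peak, against 1026 of the 2358 found in the list without the label alone (43.5%, 41.5% to 45.5%). Peaks in both lists were wider, with a median of 461 bp, against 197 bp for those in 1 list. Among peaks under the median width of the blastocyst list, 86.1% of the 166 in both lists met a day 14 peak, against 35.1% of the 1522 in 1 list. Outside the 10 windows it was 93.8% of those in both lists and 38.8% of those in 1 list. Of the peaks absent from the 8 earlier lists, 84.2% of the 76 in both blastocyst lists and 27.9% of the 1633 in 1 list met a day 14 peak. Of the 1388 blastocyst-only peaks, 56 (4.03%) were in the in vivo list, against 983 of the 2009 shared ones (48.9%).

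Peaks on X met a morula peak more often than those on the autosomes among blastocyst-only, day 14-only and shared blastocyst peaks. Of the 82 blastocyst-only peaks on X, 32 (39.0%, interval 28.4% to 50.4%) met a morula peak, against 38 of the 1306 on the autosomes (2.91%, 2.07% to 3.97%). Median widths were 195 bp on X and 185 bp on the autosomes. The in vivo blastocyst list met 26.8% of the blastocyst-only peaks on X and 2.60% of those on the autosomes. Among day 14-only peaks, 31.9% of the 3556 on X and 11.9% of the 366989 on the autosomes met a morula peak. Among shared blastocyst peaks it was 70.2% of the 282 on X and 49.0% of the 1727 on the autosomes. In the direction from the morula, 30.5% of the 3785 morula peaks on X met a day 14 peak, against 46.5% of the autosomal ones. The other lists did not all show this: in the in vivo morula list it was 50.2% on X and 49.99% on the autosomes, and in the 2-cell list 77.6% on X and 54.1% on the autosomes. On X, 77.5% of the blastocyst peaks and 73.4% of the in vivo blastocyst peaks met a day 14 peak, against 56.9% and 44.1% on the autosomes. The sex of the pooled embryos is not given in the sources used here.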

How the data were processed

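Each deposited list gives the chromosome, start and end of peaks and no score, count or p-value; the authors merged the libraries of a stage into it, per the series description. The submitters' processing notes name Bowtie2 2.3, MACS2, HOMER, bedtools and build UMD3.1. The sources used here do not give their order, the calling threshold, the read shift or the merging rule, and each affects peak number and width. Starts were read as counted from 0 and are printed counted from 1; the lists do not state this. Chromosome lengths were taken as the last position in any list. Peaks were placed in 1 Mb windows by their centre. Named regions followed a fixed rule (the 5 widest of each class, the 3 largest and smallest width ratios, the 10 and 5 fullest windows). Members, lists and rule were chosen with earlier results of these data known. Gene context and sequences were not analysed here, since no genome of this build was used. Overlap counts equalled those of bedtools 2.31.1 in 20 of 20 comparisons and planted overlaps in 5 of 5 simulated blastocyst lists. Scripts ran in Python 3.11.15 with pandas 2.3.3, numpy 2.4.6, matplotlib 3.10.9 and scipy 1.17.1.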

Additional observations from a re-analysis of the deposited data

How the results depend on the processing

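Peak lists of unknown depth limit every value here: the length of a list sets how many peaks can be shared. No paired analysis was possible because each stage is 1 merged list, and for the same reason no replicate could be left out. Shared blastocyst peaks met a morula peak more often than blastocyst-only ones under all 7 alternatives run on both, and the day 14 list stayed above and the blastocyst list below 1 in density on chromosomes 18, 19 and 25. Shares below are of peaks, and window shares are for the 10 fullest windows and depend on the size of the class. The cause of these moves was not tested except where the alternative itself sets it.

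With at least 50% of both peaks shared, 0.360% of day 14 and 39.4% of blastocyst peaks were shared, with a median width ratio of 1.06. The morula list then met 36.8% of the shared blastocyst and 4.72% of the day 14-only peaks, 17.4% of the blastocyst-only peaks were in another list, and the windows held 23.0% of the blastocyst-only peaks. Widening peaks by 250 bp gave 0.616% of day 14 peaks shared, a ratio of 1.06, 15.7% of day 14-only peaks in the morula, a day 14 density of 1.94, and window shares of 1.36% (day 14-only), 28.8% (shared blastocyst) and 14.4% (blastocyst-only). Joining peaks less than 500 bp apart gave 0.580% of day 14 and 56.7% of blastocyst peaks shared, a ratio of 1.16, 13.4% of day 14-only peaks in the morula, 13.2% of blastocyst-only peaks in another list, a day 14 density of 1.94, and window shares of 1.36% (day 14-only), 30.01% (shared) and 14.1% (blastocyst-only).

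With peaks of at least 329 bp in both lists (108850 day 14 and 1044 blastocyst peaks), 0.706% of day 14 and 74.8% of blastocyst peaks were shared, with a ratio of 1.05. The morula met 26.7% of day 14-only, 77.8% of shared blastocyst and 29.7% of blastocyst-only peaks. Of the blastocyst-only peaks, 63.9% were in another list. Under this setting a wide blastocyst peak over a narrow day 14 peak counts as unshared, and narrow blastocyst peaks are left out. The part of each in these values was not tested. Density was 2.63 at day 14, and window shares were 3.11% (day 14-only), 37.8% (shared) and 56.3% (blastocyst-only). Keeping the 3397 widest day 14 peaks left 2.44% of day 14 and 4.47% of blastocyst peaks shared, a ratio of 1.41, morula shares of 67.3% (day 14-only), 68.4% (shared) and 31.2% (blastocyst-only), 50.2% of blastocyst-only peaks in another list, a density of 3.24, and window shares of 5.16%, 57.2% and 25.2% for the same classes.

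Without the 10 blastocyst windows the shares were 0.346% of day 14 and 53.0% of blastocyst peaks, the ratio 1.19, the blastocyst density 0.491, and the shares of the next 10 windows 16.1% (shared) and 7.72% (blastocyst-only). An alternative chosen after seeing the data left out regions that recur in at least 2 of the GV, MII, 2-cell, 4-cell and in vivo blastocyst lists. It gave 0.284% of day 14 and 44.6% of blastocyst peaks shared, a ratio of 1.16, 28.8% of shared blastocyst peaks in the morula, and 12.9% of blastocyst-only peaks in another list. Weighting to the widths of shared peaks gave morula shares of 20.5% for day 14-only and 11.02% for blastocyst-only peaks.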
